A study of Mus musculus with 5 samples.

Results

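The genes described here are 28 genes of cholesterol synthesis and of its control by the transcription factor SREBP2, out of 55397 genes listed in the count table. They were found by gene symbol, 1 Ensembl row each, and comprise 18 of the enzymes that lead from acetyl-CoA to cholesterol, 1 enzyme of the isoprenoid branch, 4 genes of the SREBP2 control system and 5 genes of sterol transport and storage. Other steps of that route are not among the 18 and were counted in a separate list of 12 genes. RNA was measured in liver tumours of female C57BL/6N mice whose hepatocytes had received Akt and the Notch1 intracellular domain (NICD) on transposon plasmids by hydrodynamic tail vein injection at 8 weeks of age, a model of cholangiocarcinoma (CCA), the liver cancer with bile duct features. All 5 libraries shared these oncogenes, the strong EF1a promoter that drives them, the Sleeping Beauty transposase and the doxycycline-dependent activator rtTA. The 2 Control libraries carried a doxycycline-responsive plasmid encoding GFP alone, and the 3 Prox1 OE (overexpression) libraries carried the same plasmid encoding FLAG-tagged mouse Prox1 and GFP. Doxycycline diet from day 21 switched Prox1 on from week 3 to week 4, and the labels do not say whether a given tumour was taken after that week or at a humane endpoint. They give 1 protocol for both groups and do not state separately that the Control mice had the diet for the same time. The study describes the RNA as taken from mice, but the labels do not tie each library of a group to a mouse of its own, so the p-values below measure the spread between these libraries, which may be partly technical. Libraries of a group differed by more than counting error, with a chi-square per degree of freedom over genes of 36.2 between the Controls and 73.5 to 115 between Prox1 OE libraries.

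Cells build cholesterol from acetyl-CoA through mevalonate, farnesyl diphosphate, squalene and lanosterol, and hepatocytes are a main site of this synthesis. SREBP2, encoded by Srebf2, is held in the endoplasmic reticulum with its escort Scap and the sterol-sensing Insig proteins. When membrane cholesterol falls, Scap carries SREBP2 to the Golgi, where cleavage frees a fragment that enters the nucleus and binds sterol regulatory elements beside NF-Y and Sp1 sites in the promoters of nearly every enzyme of the pathway. That cleavage is not measured by RNA.

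Reads per library ran from 48740863 to 56629477, and values are normalised counts, which are reads divided by the DESeq2 size factor of the library. Prox1 itself stood at 4153 and 4664 normalised counts in the Controls and at 48089.8, 11113 and 8231 in the Prox1 OE libraries, so every Prox1 OE library was above both Controls, and the library with the most Prox1 was replicate 1 (log2 fold change 1.90, SE 0.66, limma adjusted p = 0.0607). Without Prox1 OE replicate 1 this log2 fold change was 1.12, and reads of the plasmid and of the mouse gene could not be told apart. Hepatocyte markers were present in every library, with Alb at 480678 and 798691 in the Control libraries. The bile duct marker Krt19 stood at 8442 and 10789.8 in the Control libraries and at 1643, 1968 and 1785 in the Prox1 OE libraries.

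Transcripts of most of the 18 cholesterol synthesis enzymes were higher in the Prox1 OE tumours. Of the 18 enzymes from Acat2 to Dhcr7, 14 rose, 0 fell and 4 did not pass the test (Idi1, Sqle, Cyp51 and Msmo1), with a median log2 fold change of 1.00. The test was limma on log2(normalised count + 1) over 17105 genes, at a Benjamini-Hochberg adjusted p under 0.05. Over all 28 genes, each of which was measured well enough to be tested, 17 rose, 1 fell (Ggps1) and 10 did not pass, and the median was 0.83 against -0.02 over all genes tested. For comparison, 17.1% of all genes tested were called higher in Prox1 OE and 16.2% were called lower. In 22 of the 28 genes every Prox1 OE library was above both Control libraries, which was true of 30.9% of all genes tested, and in 2 (Ggps1 and Srebf2) every Prox1 OE library was below both, which was true of 32.4%. The groups overlapped in the other 4, Idi1, Stard4, Soat1 and Npc1.

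**Figure D1:**
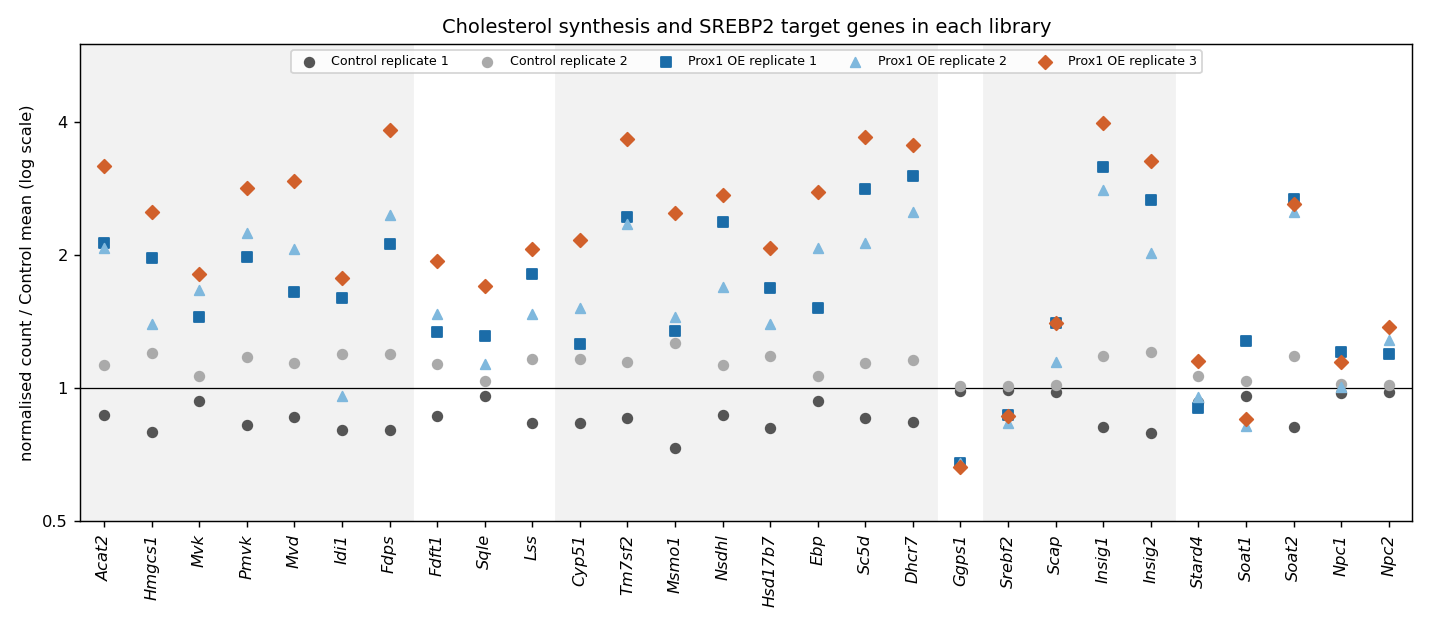
Normalised count of each of the 28 genes divided by the mean of the 2 Control libraries (vertical axis, log scale), with 1 point for each library and grey bands separating the groups of genes in pathway order. Prox1 OE replicate 3 was the highest library for all 18 enzymes from Acat2 to Dhcr7, and all Prox1 OE points lay below both Control points for Ggps1 and Srebf2.

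The size of these differences depended on how libraries were scaled. With total reads as library size, the median of all genes moved to -0.44, the median of the 28 genes to 0.40, and 12 were called higher and 3 lower (Ggps1, Srebf2 and Stard4), when 8.62% of all genes tested were called higher and 39.9% lower. It also depended on the Control libraries. Without Control replicate 1, 4 of the 28 genes were called higher (Dhcr7, Insig1, Soat2 and Tm7sf2), when 3.98% of all genes tested were, and the lone Control library was then assumed to vary like the others. Hmgcs1 and Hsd17b7 also lost the call without Prox1 OE replicate 1 (limma adjusted p = 0.0619 and 0.0509) or replicate 3 (0.0662 and 0.0684), and Ebp without Control replicate 2 (0.0616) or Prox1 OE replicate 2 (0.0544). Dhcr7, Insig1, Soat2 and Tm7sf2 were called higher under every alternative that was run.

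The mevalonate steps showed a median log2 fold change of 1.12, and 6 of the 7 enzymes rose. Acat2, the cytosolic thiolase that joins acetyl-CoA units, stood at 2074 and 2685 normalised counts in the Controls and 5068, 4926 and 7578 in the Prox1 OE libraries, with no overlap (log2 fold change 1.28, SE 0.21, limma adjusted p = 0.00528). Hmgcs1, which makes HMG-CoA, had 6085 and 9204 in Control and 15083, 10709.5 and 19114 in Prox1 OE (log2 fold change 0.96, SE 0.27, limma adjusted p = 0.0304). Its lowest Prox1 OE library, replicate 2, was only 1.16 times its higher Control. The kinase Mvk, which phosphorylates mevalonate, averaged 974 ± 90.5 over the 2 Controls and 1600.2 ± 178 over the 3 Prox1 OE libraries (mean ± SD), the smallest change among the 6 that rose (log2 fold change 0.71, SE 0.14, limma adjusted p = 0.00944).

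Pmvk adds the next phosphate, and its counts were 1188 and 1695 in Control against 2858, 3243 and 4095 in the Prox1 OE libraries (log2 fold change 1.24, SE 0.20, limma adjusted p = 0.005). Mvd, which decarboxylates the product to isopentenyl diphosphate, was at 1070.5 and 1421 in Control and at 2060.3, 2576 and 3671 in Prox1 OE (log2 fold change 1.12, SE 0.25, limma adjusted p = 0.0131). Fdps, which builds farnesyl diphosphate, changed most in this segment, from 794 and 1181 to 2093, 2433 and 3781 (log2 fold change 1.47, SE 0.27, limma adjusted p = 0.00751). All 3 genes separated the groups fully, and in each the highest library was Prox1 OE replicate 3 and the lowest was Control replicate 1.

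Idi1, the isomerase between Mvd and Fdps, was the exception among the mevalonate genes. Its counts were 528 and 784 in the Control libraries and 1049, 630.1 and 1165 in the Prox1 OE libraries, so that Prox1 OE replicate 2 lay between the Controls while the other Prox1 OE libraries lay above both. The log2 fold change was 0.51 with a 95% interval of -0.17 to 1.19 and a limma adjusted p = 0.209, and that interval includes the fold change of Mvd.

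At the squalene and lanosterol steps the median was 0.66, and 2 of the 3 enzymes rose. Fdft1, squalene synthase, is the enzyme that commits farnesyl diphosphate to sterols, and its counts went from 4019 and 5278 in Control to 6219, 6846 and 9034 in Prox1 OE (log2 fold change 0.66, SE 0.19, limma adjusted p = 0.0351). Sqle, squalene epoxidase, had 3409 and 3679.7 in Control and 4655, 4029.6 and 6048 in Prox1 OE, above both Controls in every Prox1 OE library but short of the threshold (log2 fold change 0.45, SE 0.18, limma adjusted p = 0.0852). Lss, which closes the ring to lanosterol, went from 1490.3 and 2084 to 3243, 2634 and 3692 (log2 fold change 0.84, SE 0.19, limma adjusted p = 0.0156). None of the 3 was called with total reads as library size, where their median log2 fold change was 0.23, and Fdft1 lost its call in 4 of the 5 fits that left out a library. The adjusted p of Fdft1 was 0.268 without Control replicate 1, 0.0630 without Control replicate 2, 0.0794 without Prox1 OE replicate 2 and 0.0674 without Prox1 OE replicate 3.

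Past lanosterol, 6 of the 8 enzymes rose, with a median log2 fold change of 1.11, and in all 8 every Prox1 OE library was above both Controls. Dhcr7, which makes cholesterol from its immediate precursor, had the largest change of the 18 enzymes: 1941 and 2684 normalised counts in the Controls and 6970.3, 5802 and 8201 in the Prox1 OE libraries (log2 fold change 1.60, SE 0.19, limma adjusted p = 0.00261). Sc5d, the desaturase that makes the precursor used by Dhcr7, went from 5624 and 7506 to 18482, 13966 and 24249.9 (log2 fold change 1.50, SE 0.24, limma adjusted p = 0.00468). Ebp, the isomerase before Sc5d, went from 4188 and 4764 to 6801, 9291 and 12418 (log2 fold change 1.05, SE 0.23, limma adjusted p = 0.0146). The lowest Prox1 OE library was 1.43 times the higher Control for Ebp, and further above it for Sc5d and Dhcr7.

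Of the enzymes that remove methyl groups from the sterol ring, Nsdhl rose from 2069 and 2696 to 5669.7, 4027 and 6529.7 (log2 fold change 1.17, SE 0.22, limma adjusted p = 0.00774) and Hsd17b7 from 850.3 and 1236 to 1762, 1456 and 2170.02 (log2 fold change 0.79, SE 0.22, limma adjusted p = 0.0287). Msmo1, the oxidase that acts before them, did not pass the test. Its counts were 2430.2 and 4204 in Control and 4467, 4819 and 8277 in Prox1 OE (log2 fold change 0.82, SE 0.31, limma adjusted p = 0.0826), and its Controls differed 1.73-fold, the widest gap among the 28 genes. Prox1 OE replicates 1 and 2 were within 1.15 times Control replicate 2 for this gene.

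Cyp51, the lanosterol demethylase, showed the same layout, with 4131 and 5768 in Control and 6247, 7531 and 10689 in Prox1 OE (log2 fold change 0.70, SE 0.24, limma adjusted p = 0.0593). DESeq2 on the recovered reads called Cyp51 (adjusted p = 0.0203) and Msmo1 (adjusted p = 0.0343), and edgeR called neither (adjusted p = 0.0586 and 0.086). Over the 18 enzymes edgeR called 14 higher and DESeq2 called 16, beside 18.0% and 20.1% of all genes. Neither called any lower (0, with limma also 0 at an unadjusted p under 0.05), beside 15.7% of all genes by edgeR and 19% by DESeq2.

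**Figure D2:**
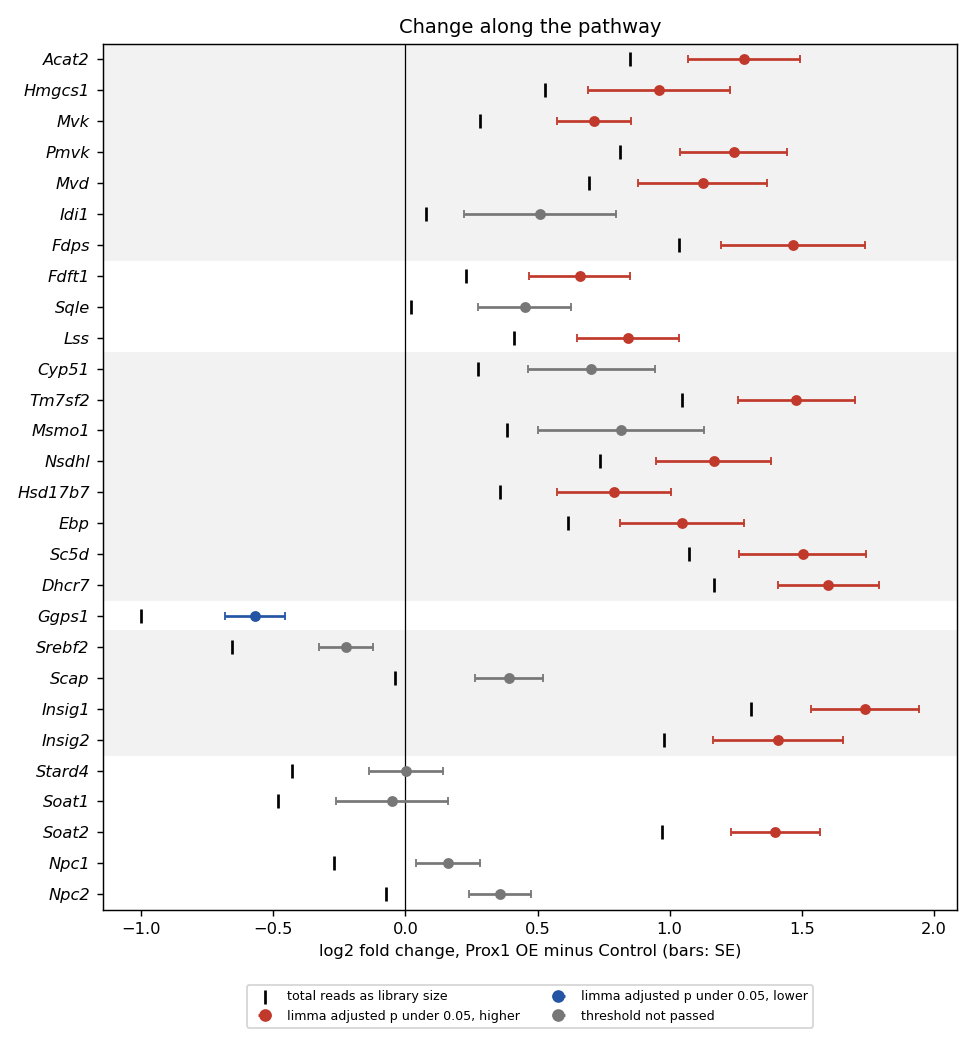
Log2 fold change, Prox1 OE minus Control, of the 28 genes in pathway order from top to bottom, with the standard error of the limma fit as bars and colour marking the genes past the adjusted p threshold. The black ticks give the same value with total reads as library size, which shifts each gene down by about the same amount and puts Scap, Stard4, Npc1 and Npc2 below 0.

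The reduction that follows Cyp51 can be made by either of 2 enzymes, Tm7sf2 or the lamin B receptor Lbr, which also holds chromatin at the nuclear envelope. Tm7sf2 rose from 1221 and 1633 to 3477, 3353 and 5232 normalised counts (log2 fold change 1.48, SE 0.22, limma adjusted p = 0.00388). Lbr fell, from 2406 and 2304 to 1287, 1637 and 1425 (log2 fold change -0.71, SE 0.13, limma adjusted p = 0.00833). The ratio of Tm7sf2 to Lbr was 0.507 and 0.709 in the Control libraries and 2.70, 2.05 and 3.67 in the Prox1 OE libraries, a difference of 2.19 on the log2 scale. Lbr was named after its values were seen, and its limma adjusted p was 0.0928 without Control replicate 1 and 0.0598 without Control replicate 2. The ratio does not depend on how libraries were scaled, and the exact permutation test over the 10 ways to label 2 of the 5 libraries gave p = 0.1, the smallest it can give here.

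Ggps1, which turns farnesyl diphosphate into geranylgeranyl diphosphate for the lipid anchors of small GTPases, went the other way. Its counts were 1419 and 1461 in the Control libraries and 979, 978 and 954 in the Prox1 OE libraries, a narrow spread within each group and no overlap (log2 fold change -0.57, SE 0.11, limma adjusted p = 0.0096). With 1 Control library left out the fold change stayed between -0.59 and -0.55, but the limma adjusted p was 0.102 without Control replicate 1 and 0.1003 without Control replicate 2. Set against Fdft1, which draws on the same farnesyl diphosphate, the ratio of Fdft1 to Ggps1 was 2.83 and 3.61 in Control and 6.36, 7.00 and 9.47 in Prox1 OE (two-sided exact permutation p = 0.1, the smallest possible). That ratio was chosen after the values were seen.

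Across a list of 14 genes for other uses of isoprenoids, such as ubiquinone and dolichol synthesis and protein prenylation, 3 rose and 0 fell, with a median log2 fold change of 0.04, beside 17.1% and 16.2% of all genes tested. At an unadjusted limma p under 0.05, whose share over all genes is not given here, 5 were higher and 0 lower. Both edgeR and DESeq2 called 4 higher and 0 lower, beside 18.0% and 15.7% (edgeR) and 20.1% and 19% (DESeq2) of all genes tested. The 3 were Pdss2, which makes the ubiquinone tail (0.56), Coq2, which attaches it (0.54), and Trit1, which adds an isopentenyl group to tRNA (0.44). All 3 lost the call without Control replicate 1 (limma adjusted p = 0.166, 0.103 and 0.285) or Control replicate 2 (0.101, 0.129 and 0.142), and Trit1 also without Prox1 OE replicate 2 (0.0963) or 3 (0.0893). None was called higher with total reads as library size, where 5 of the 14 were called lower, a share near that of all genes tested (39.9%).

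Of the SREBP2 control genes, both Insig genes rose and Srebf2 and Scap did not pass the test. Insig1, a sterol sensor that is itself an SREBP target, had 2954 and 4276 normalised counts in the Controls and 11422, 10144 and 14396 in the Prox1 OE libraries, the largest change of the 28 genes (log2 fold change 1.74, SE 0.20, limma adjusted p = 0.00258). Insig2, its relative that in liver is not raised by SREBP, had 6450.1 and 9807 in Control and 21692, 16451 and 26512 in Prox1 OE (log2 fold change 1.41, SE 0.25, limma adjusted p = 0.00613). Every Prox1 OE library was above both Controls for each, with Prox1 OE replicate 2 the lowest of the 3.

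Within a library the ratio of Insig1 to Insig2 was 0.458 and 0.436 in Control and 0.527, 0.617 and 0.543 in Prox1 OE. The difference in the log2 ratio was 0.33 and the groups did not overlap (two-sided exact permutation p = 0.1, the smallest possible).

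Srebf2 itself differed by little. Its counts were 4745 and 4849 in the Control libraries and 4166, 4004 and 4154 in the Prox1 OE libraries, so all Prox1 OE libraries lay slightly below both Controls (log2 fold change -0.22, SE 0.10, limma adjusted p = 0.13), and the 95% interval ran from -0.46 to 0.02. Scaled by total reads, the log2 fold change was -0.65, against -0.44 for the median gene, and it was called lower (adjusted p = 0.00437). Scap, the escort, went from 2907 and 3019 to 4169, 3402 and 4153, with every Prox1 OE library higher (log2 fold change 0.39, SE 0.13, limma adjusted p = 0.0521). Scap was called by edgeR (adjusted p = 0.0395) and DESeq2 (adjusted p = 0.0279), and its direction turned with total reads as library size (-0.04).

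Of 15 proteases, ligases and partner factors that act with SREBPs, 2 rose and 3 fell, with a median log2 fold change of 0.11, shares near the 17.1% and 16.2% of all genes tested. Srebf1, which encodes the SREBP of fatty acid synthesis, went from 6887 and 7196 to 12316, 11547 and 11242 (log2 fold change 0.73, SE 0.11, limma adjusted p = 0.00416). Nfya, the NF-Y subunit that recognises CCAAT, went from 2658 and 2161 to 1692, 1333 and 1311 (log2 fold change -0.74, SE 0.16, limma adjusted p = 0.0129). Mbtps2, the protease that makes the last cut in SREBPs, fell by 0.55 on the log2 scale, as did Sp1 by 0.45. Both lost the call in every fit that left out a library other than Prox1 OE replicate 1, with limma adjusted p from 0.0684 to 0.251 for Mbtps2 and from 0.0743 to 0.233 for Sp1, and Sp1 also lost it with upper-quartile factors (0.064). Without Control replicate 1, Nfya (0.139) and Srebf1 (0.0663) lost it too, and Srebf1 did so with total reads as library size (0.105). Under total reads 0 of the 15 were called higher and 6 lower, beside 8.62% and 39.9% of all genes tested.

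In the list of 12 further genes of sterol synthesis, its electron donors and other SREBP2 targets, 10 rose and 1 fell (Lbr), beside 17.1% and 16.2% of all genes tested, with a median log2 fold change of 1.13. Pgrmc1, a haem-binding partner of sterol-modifying cytochromes, went from 22935 and 26754 to 58982, 58022 and 78105 (log2 fold change 1.38, SE 0.19, limma adjusted p = 0.00326). Cyb5a, the cytochrome that hands electrons to enzymes such as Sc5d, went from 18550.2 and 21299 to 42914, 48998 and 64501 (log2 fold change 1.37, SE 0.20, limma adjusted p = 0.00378). Both separated the groups fully, but without Control replicate 1 their limma adjusted p was 0.0536 and 0.0562. Of the 12, 9 were called higher with total reads as library size, beside the same 8.62% of all genes tested.

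Among the 5 genes of sterol transport and storage, 1 rose, a share near the 17.1% of all genes tested, and the median log2 fold change was 0.16. Soat2, the enzyme that esterifies cholesterol in hepatocytes and enterocytes, went from 619 and 893 normalised counts in the Controls to 2029.7, 1892 and 1973 in the Prox1 OE libraries (log2 fold change 1.40, SE 0.17, limma adjusted p = 0.00261). Soat1, the form found in most other cells, stood at 609 and 659 in Control and at 811, 520.4 and 542 in Prox1 OE, with Prox1 OE replicate 1 above both Controls and the other Prox1 OE libraries below both (log2 fold change -0.05, SE 0.21, limma adjusted p = 0.87). The ratio of Soat2 to Soat1 was 1.02 and 1.35 in Control and 2.50, 3.63 and 3.64 in Prox1 OE, a difference of 1.45 on the log2 scale with no overlap (two-sided exact permutation p = 0.1, the smallest possible).

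Stard4, a cytosolic cholesterol carrier that SREBP2 is known to induce, had a log2 fold change near 0 under the deposited scaling. Its counts were 3297 and 3769 in Control and 3190.2, 3382 and 4073 in Prox1 OE, the groups overlapped (log2 fold change 0.00, SE 0.14, limma adjusted p = 0.994), and the 95% interval of -0.33 to 0.33 lay below the fold change of each of the 17 genes that rose. Scaling by total reads, Stard4 was called lower (-0.43, adjusted p = 0.0243), again near the -0.44 of the median gene. Npc1 and Npc2, which export cholesterol from lysosomes, differed little. Npc1 stood at 3609.97 and 3774 in Control and 4466, 3720.5 and 4223 in Prox1 OE, where replicate 2 lay between the Controls (log2 fold change 0.16, SE 0.12, limma adjusted p = 0.337). Npc2 stood at 7579.8 and 7882 in Control and 9224, 9937 and 10629 in Prox1 OE, with no overlap (log2 fold change 0.36, SE 0.12, limma adjusted p = 0.0507). Both turned negative with total reads as library size (-0.27 and -0.07). DESeq2 called Npc2 higher (adjusted p = 0.0161).

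**Figure D3:**
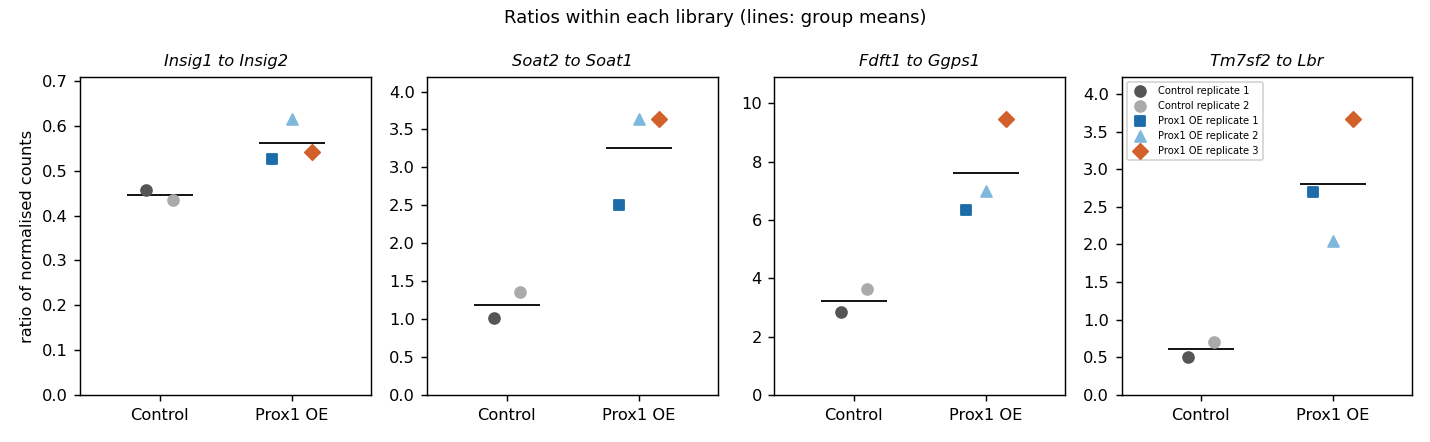
Ratio of normalised counts of 2 genes within each library, in 4 panels, with 1 point for each library and a horizontal line at the mean of each group. All 3 Prox1 OE libraries were above both Control libraries in each panel, from 0.527 against 0.458 at the closest for Insig1 to Insig2 to 2.05 against 0.709 for Tm7sf2 to Lbr.

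The 5 libraries also differed within their groups, and the cholesterol genes differed together there. Control replicate 2 was above Control replicate 1 in 28 of the 28 genes, by 1.02 to 1.73 times, whereas it was above in 53.5% of all genes tested. Prox1 OE replicate 3 was the highest Prox1 OE library for all 18 enzymes from Acat2 to Dhcr7, and for 34.5% of all genes tested. Prox1 was lowest in that replicate among the Prox1 OE libraries. Relative to the Control mean, the median of the 18 enzymes on the log2 scale was -0.22 and 0.22 in the Control libraries and 0.83, 0.75 and 1.42 in the Prox1 OE libraries.

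The 8 hepatocyte markers were also higher in Control replicate 2 than in replicate 1 and highest in Prox1 OE replicate 3, although Prox1 OE replicates 1 and 2 stood in the opposite order, with medians of -0.34 and 0.34 in the Control libraries and 1.31, 1.57 and 2.17 in the Prox1 OE libraries. Of these 8, 7 rose (median log2 fold change 1.70), beside 17.1% of all genes tested, and none was at 0 in any library. Their summed level was 688241 to 1143960 normalised counts in Control and 2387420 to 3695530 in Prox1 OE. With any 1 library left out, the log2 fold change of each of the 7 stayed at 1.01 or more. Alb lost the call without any 1 Prox1 OE library (limma adjusted p from 0.0523 to 0.0664). Apoa1, Cyp2e1 and Tat lost it without Prox1 OE replicate 2 (limma adjusted p = 0.0771, 0.0545 and 0.0544), and Apoa1 also without replicate 3 (0.0515). Of 8 cholangiocyte markers 7 fell (median -1.56), beside 16.2% of all genes tested, and none was at 0. Their summed level of 758311 to 827377 in Control and 523550 to 707485 in Prox1 OE was mostly Spp1, the marker that was not called (log2 fold change -0.34), and the other 7 summed to 42627.9 to 46300.7 in Control and 14233 to 18660.1 in Prox1 OE. All 6 cycling cell markers fell (median -0.94), beside 16.2% of all genes tested, from summed levels of 30983.5 to 46076.8 to levels of 16577.8 to 21807.1. With any 1 library left out, their log2 fold changes lay from -1.37 to -0.46. Mki67 lost the call without Prox1 OE replicate 2 and Cdk1 without replicate 3 (limma adjusted p = 0.0587 and 0.0611). Scaled by total reads, 7 hepatocyte markers were called higher, and 8 cholangiocyte and 6 cycling cell markers lower, beside 8.62% and 39.9% of all genes tested. The part of these shifts in the change of the cholesterol genes was not tested, and in bulk tumour RNA a different number of cells of a type and a different amount of RNA per cell cannot be told apart.

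The following limma counts stand beside 17.1% of all genes tested called higher and 16.2% called lower. Those of edgeR stand beside 18.0% and 15.7%, and those of DESeq2 beside 20.1% and 19%. The share of all genes at an unadjusted limma p under 0.05 is not given here. Of 8 Kupffer cell and macrophage markers 2 rose and 0 fell (summed level 21118.5 to 23771.3 in Control and 32740.8 to 49473.2 in Prox1 OE), whereas DESeq2 called 6 higher, edgeR 2, and 6 were higher at an unadjusted limma p under 0.05. Of 8 stellate cell and fibroblast markers 2 rose and 4 fell (116924 to 121706 and 61460.8 to 74409.3). Of 6 endothelial markers 2 rose and 0 fell (7709.6 to 9943.01 and 9675.83 to 14007.3), with 3 higher by edgeR, by DESeq2 and at an unadjusted limma p under 0.05, and 0 lower by each. For lymphocytes, 4 of 5 T cell markers rose (123.758 to 157.741 and 296.522 to 441.311), as did 1 of the 3 B cell markers tested (108.5 to 125.7 and 175.816 to 224.525 over all 4). The 4 T cell markers that rose stood at only 18.6 to 32.0 normalised counts each in the Control libraries. All 4 lost the call without Prox1 OE replicate 2 (limma adjusted p from 0.0505 to 0.0955), as did the B cell marker (limma adjusted p = 0.0617). Of 4 neutrophil markers 0 were called by limma, edgeR or DESeq2 or reached an unadjusted p under 0.05 (417.895 to 698.333 and 542.943 to 810.643). Scaled by total reads, where 8.62% of all genes tested were called higher and 39.9% lower, the counts were 2 higher and 0 lower for Kupffer cells and macrophages, 1 and 6 for stellate cells and fibroblasts, 2 and 3 for endothelium, 2 and 0 for T cells, and 0 and 0 for B cells and neutrophils.

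Levels of different genes can be set side by side only per length, as normalised counts per kilobase of annotated exon. On that scale Insig2 was highest in both groups, at 2340.4 in Control and 6206 in Prox1 OE (means of 2 and 3 libraries). Ebp followed in both, at 1938 and 4114, and Soat1 was lowest in both, at 64.8 and 63.8. The order between them shifted: in Control the next genes were Hmgcs1 (1664), Npc2 (1422) and Sc5d (1349), whereas in Prox1 OE they were Sc5d (3884), Insig1 (3876) and Hmgcs1 (3258). At the top of the order, from Insig2 down, each of these genes overlapped its neighbour over the libraries of the group. Of the 18 enzymes Lss was lowest in Control (166) and Idi1 in Prox1 OE (271), with overlap between Lss and Idi1 in both groups. The lengths are unions of all annotated exons and can exceed the transcript in use, which lowers a gene's value.

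**Figure D4:**
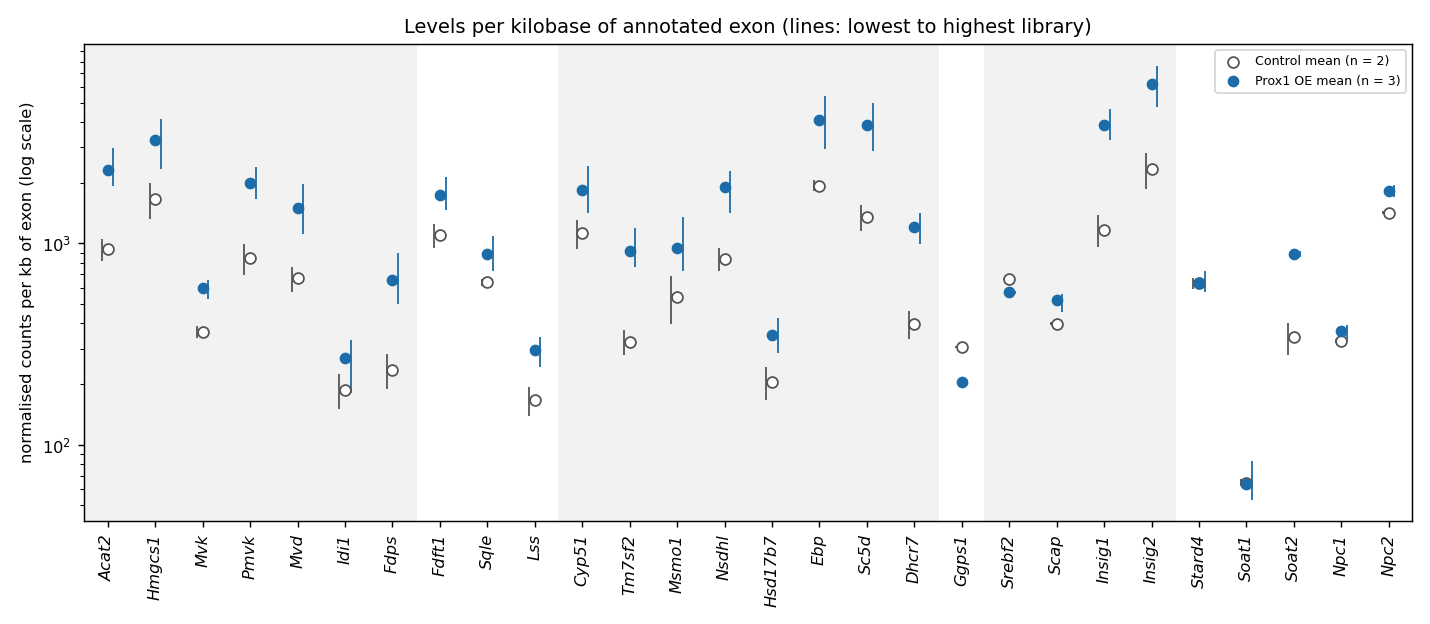
Normalised counts per kilobase of annotated exon (vertical axis, log scale) for the 28 genes in pathway order, as the mean of each group, with vertical lines from the lowest to the highest library. Open circles are the 2 Control libraries and filled circles the 3 Prox1 OE libraries, and the genes run from about 63.8 for Soat1 to 6206 for Insig2 in Prox1 OE.

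SREBP2 acts through short promoter elements, so the 250 bases before the RefSeq start of each gene were searched on both strands for TCACNCCAC (a sterol regulatory element), CCAAT (read by NF-Y) and GGGCGG (read by Sp1). A RefSeq promoter of build GRCm38.p6 was matched for 22 of the 28 genes, and for Fdps, Fdft1, Sqle, Stard4, Soat2 and Npc1 none was used. A gene with several starts was counted where any of its windows held the letters. CCAAT was in 20 of the 22 (not in Acat2 or Scap) and in 39.8% of the promoters of all genes tested. It occurred at least 2 times in 12 of the 22 and in 14.3% of the promoters of all genes tested. Among the 14 promoters of genes that rose, 13 held CCAAT, and among the other 8, 7 did.

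GGGCGG was in 19 of the 22 and in 59.3% of the promoters of genes tested. TCACNCCAC was in 1 (Hmgcs1) and in 1.25% of those of genes tested, and the shorter TCACNCCA, which lies within it and was added after the windows had been seen, was in 3 (Hmgcs1, Msmo1 and Srebf2) and in 4.09%. These are matches of letters only. The windows of 5 genes are shown because they hold CCAAT with TCACNCCAC (Hmgcs1, which rose), with only the shorter TCACNCCA (Srebf2, which did not pass the test) or with neither (Mvd, Sc5d and Insig1, which rose). They are RefSeq GRCm38.p6 sequence in the direction of the gene, with bases of annotated exons left off, and capitals mark TCACNCCA, continued to TCACNCCAC where it matches, and CCAAT, which reads ATTGG on the other strand.
Hmgcs1, chr13:119690101-119690350, plus strand: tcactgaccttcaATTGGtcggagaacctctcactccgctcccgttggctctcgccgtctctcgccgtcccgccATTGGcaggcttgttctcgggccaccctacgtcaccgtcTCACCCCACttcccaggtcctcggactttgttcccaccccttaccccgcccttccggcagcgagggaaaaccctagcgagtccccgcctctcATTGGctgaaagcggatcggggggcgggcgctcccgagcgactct
Srebf2, chr15:82147019-82147180, plus strand: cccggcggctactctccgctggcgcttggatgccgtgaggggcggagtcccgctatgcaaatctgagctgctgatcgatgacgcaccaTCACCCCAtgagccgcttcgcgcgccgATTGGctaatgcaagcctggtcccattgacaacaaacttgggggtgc
Mvd, chr8:122443423-122443672, minus strand: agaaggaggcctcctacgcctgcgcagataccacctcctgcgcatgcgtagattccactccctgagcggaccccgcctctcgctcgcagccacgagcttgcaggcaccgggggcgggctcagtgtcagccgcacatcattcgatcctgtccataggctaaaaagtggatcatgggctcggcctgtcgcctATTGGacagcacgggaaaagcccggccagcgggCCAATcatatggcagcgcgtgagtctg
Sc5d, chr9:42264301-42264550, minus strand: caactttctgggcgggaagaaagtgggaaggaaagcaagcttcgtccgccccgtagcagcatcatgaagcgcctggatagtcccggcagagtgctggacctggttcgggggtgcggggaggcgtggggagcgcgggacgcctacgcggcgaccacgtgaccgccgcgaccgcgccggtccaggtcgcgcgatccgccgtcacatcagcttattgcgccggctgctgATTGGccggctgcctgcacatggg
Insig1, chr5:28071162-28071362, plus strand: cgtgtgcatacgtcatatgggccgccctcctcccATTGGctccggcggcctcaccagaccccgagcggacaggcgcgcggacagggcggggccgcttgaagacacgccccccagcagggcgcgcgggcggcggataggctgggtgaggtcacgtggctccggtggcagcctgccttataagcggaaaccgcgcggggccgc

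Hmgcs1 thus held 3 copies of CCAAT around its sterol regulatory element, and Srebf2 held 1 copy downstream of its shorter match. Mvd held 2 copies, and Sc5d and Insig1 held 1 each within the bases shown. The log2 fold changes of these 5 genes were 0.96, -0.22, 1.12, 1.50 and 1.74 in that order.

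Several of the 28 genes share exon bases with a neighbour, and how the counting treated strand was not stated. Fdps overlaps Gm43738 and Tm7sf2 overlaps Vps51 on the same strand. Hmgcs1, Idi1, Fdft1, Lss, Cyp51, Ggps1, Scap and Npc1 overlap a gene on the opposite strand, for example Ctsb for Fdft1, Akap9 for Cyp51 and Arid4b for Ggps1. The counts of these 10 genes may include reads of the neighbour.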

How the data were processed

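RNA of 2 Control and 3 Prox1 OE tumour libraries was sequenced with a strand-preserving dUTP protocol as paired reads of 100 bases. The authors aligned reads with STAR to mm10 (the counting tool is not given in the sources used here) and deposited a signal per gene and library, the read count divided by a DESeq2 size factor. All columns of that table were used (0 left unassigned). Whole reads were recovered for 100% of values (tolerance 0.001). A deposited table of the authors' own DESeq2 comparison (mean normalised count, shrunken log2 fold change, p-values and adjusted p-values) was not used.

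Groups came from the sample titles. The 28 genes and all other lists were chosen with earlier results of these data known, so no p-value over a list is given. All 28 genes are named. Of the other lists, counts are given and up to 3 genes with the largest absolute log2 fold change may be named, and other names (such as Lbr, Sp1 and the marker genes Alb and Krt19) were chosen after values were seen. Some genes counted in those lists are not reported here by name. Of 55397 genes, 28705 had a read. The 17105 genes whose mean over all libraries was 10 normalised counts or more were fitted with limma 3.58.1 (lmFit, eBayes with trend, no covariate) in R 4.3.3, two-sided, on log2(normalised count + 1), a scale that understates changes of low genes. edgeR 4.0.16 (quasi-likelihood) and DESeq2 1.42.0 were run on recovered reads, and scripts were tested on simulated data. One read was worth 0.822 to 1.18 normalised counts, 3 reads at most 3.54, and depth covers counting error only. Exon lengths were taken from GENCODE M21 (GRCm38, the sequence of mm10). Replicate numbers are shared between groups, but the labels do not tie them to a mouse or batch.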

Additional observations from a re-analysis of the deposited data

How the results depend on the processing

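Over 448 values of single genes under alternatives, 381 kept direction and side of the threshold, 36 lost the call, 19 gained it and 12 changed sign. With total reads as library size 1475 genes were called higher and 6833 lower, the median of the 28 genes was 0.40, 3 of them were called lower, and Npc1 (-0.27), Npc2 (-0.072), Scap (-0.038) and Stard4 (-0.43) turned negative. With upper-quartile factors Soat1 was at 0.027. Leaving out each library in turn gave 681 to 3738 genes called higher and 477 to 3753 called lower, and, of the 28 genes, 4 to 17 called higher (4 without Control replicate 1), 0 to 1 called lower and a median of 0.61 to 1.11. Soat1 then ranged from -0.25 to 0.065 and Stard4 from -0.10 to 0.10, and for Stard4 the sign turned without Control replicate 1 (-0.09) and without Prox1 OE replicate 3 (-0.10). Of the 28 genes, 13 were called higher without the variance trend and 14 without the filter on low values, where more genes share the correction. The share of all genes called in these fits is not given here, so these counts have no background beside them. The same replicate numbers had deviations correlated at 0.137 and 0.0156, so they are not shown to pair the libraries. With the replicate number as a block (replicates 1 and 2 only) 2676 genes were called higher and 2570 lower, 19 of the 28 genes were called higher with a median of 0.69, Cyp51 (adjusted p = 0.0291) and Msmo1 (adjusted p = 0.0421) among them, and Soat1 (0.036) and Stard4 (-0.10) changed sign. No library had fewer than 48740863 reads.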

Other observations

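Genes that carry cholesterol out of the cell or turn its esters over were also read from the same limma fit. Of 12 genes of the sterol-sensing receptor LXR, efflux and cholesteryl ester turnover, 6 rose and 1 fell, beside 17.1% and 16.2% of all genes tested, with a median log2 fold change of 0.59. Abcg5 and Abcg8, the paired transporters that pump sterols into bile, went from 294 and 455 to 873, 1304 and 1749 normalised counts (log2 fold change 1.78, SE 0.31, limma adjusted p = 0.00596) and from 178 and 309 to 832, 977 and 1415 (log2 fold change 2.15, SE 0.29, limma adjusted p = 0.00322). Ch25h, which makes a hydroxylated cholesterol that holds SREBP2 back, was the gene that fell, from 175 and 274 to 34.8, 61.4 and 39.3 (log2 fold change -2.29, SE 0.34, limma adjusted p = 0.0038). With total reads as library size 5 of the 12 were called higher and 1 lower, when 8.62% and 39.9% of all genes tested were.

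Of 11 genes of sterol transfer between membranes, 4 rose and 0 fell, beside the same shares of all genes tested, with a median log2 fold change of 0.13. On the same list edgeR and DESeq2 also called 4 and 0, beside 18.0% and 15.7% (edgeR) and 20.1% and 19% (DESeq2) of all genes tested. At an unadjusted limma p under 0.05, whose share over all genes is not given here, there were 4 higher and 1 lower. Scp2, a peroxisomal sterol carrier, went from 49684 and 56196 to 145536, 119296 and 156362 (log2 fold change 1.40, SE 0.21, limma adjusted p = 0.0038). Stard5 went from 1264 and 1533 to 3049, 3134 and 4194 (log2 fold change 1.30, SE 0.17, limma adjusted p = 0.00301) and Gramd1c from 458 and 541 to 1134, 892 and 1435 (log2 fold change 1.18, SE 0.21, limma adjusted p = 0.00656). All 3 separated the groups fully. Without Control replicate 1 the limma adjusted p was 0.061 for Abcg5, 0.0738 for Scp2 and 0.0706 for Gramd1c. Under total reads 3 of the 11 were called higher and 4 lower, beside 8.62% and 39.9% of all genes tested.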
